A study of Arabidopsis thaliana with 57 samples.

Results

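In chains of 3 touching Arabidopsis thaliana plants that held an hpca1-1 plant, 282 of 32824 listed genes rose in systemic leaf 1 after elevated light. In chains of 3 wild-type plants the mean level of these genes there fell or changed little. They were chosen by group means of log2(FPKM + 1), where FPKM is the fragment count scaled by transcript length and library size. The rise in elevated light over control was at least 0.8 at systemic leaf 1 of the chain with hpca1-1, the change there in the all-wild-type chain was under 0.2, and the mean in elevated light was at least 3 FPKM beside hpca1-1. Of 285 genes that met these limits, 3 were left out by name. The values at systemic leaf 1 therefore chose the genes and are given as a description. Tests are given only for the local leaf, systemic leaves 2 and 3, and a separate experiment on plant contact. A shift shared by all leaves of a chain could carry from the selection into the tests between chains.

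The study sequenced RNA from 57 leaf samples in 19 groups of 3. In the WT-hpca1-WT chain, elevated light of 2000 µmol photons per m2 and s was given for 30 min to 1 local leaf, on a Col-0 wild-type plant, and control chains did not receive it. Sampling covered 4 positions, that leaf (local) and systemic leaves 1, 2 and 3. Only systemic leaf 2 of this chain was labelled hpca1-1, and its other 3 leaves were wild type. The 3WT chain was sampled in the same 2 light conditions and at the same 4 positions, and all of its leaves were Col-0 wild type, which gave 48 chain libraries in all. In the contact experiment, the 9 libraries came from plants that had touched for 1 h, plants that had touched for 1 week, and individual plants. All plants had grown for 4 to 5 weeks at 50 µmol photons per m2 and s, contact was helped by a dilute agarose and surfactant solution, and leaves of 10 to 15 plants were pooled per replicate. The labels give neither the time of day, nor growth or sequencing batches, nor which positions were taken from the same plants, so that p-values measure the spread between these pools.

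HPCA1 is a leucine-rich-repeat receptor kinase of the cell surface that senses extracellular hydrogen peroxide. Jasmonates are made from plastid fatty acids by lipoxygenases, allene oxide synthase and cyclase, a reductase and β-oxidation, and the enzyme JAR1 then joins jasmonic acid to isoleucine. The conjugate causes JAZ repressor proteins to be degraded, which frees MYC2 and related transcription factors. Their targets include the synthesis genes, the JAZ genes themselves and genes for enzymes that inactivate the hormone, so many parts of the pathway are transcribed together.

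Library totals ran from 757989 to 804428 FPKM in the chain table and from 745054 to 786807 in the contact table, and how many fragments lie behind each value is unknown. HPCA1 itself had between 24.2 and 33.3 FPKM, with a median of 28.4, in the 6 hpca1-1 libraries, and between 43.4 and 61.4, with a median of 53.7, in the 42 wild-type chain libraries. The mesophyll marker RBCS1A had 8405 to 10965 FPKM in the chain table, and 0 of 4 root markers reached 1 FPKM. At systemic leaf 1 the summed level of the phloem markers was 124 to 136 FPKM in elevated light and 136 to 141 in control light in the WT-hpca1-WT chain, against 150 to 154 and 143 to 154 in the 3WT chain. That of the epidermis and trichome markers was 207 to 214 FPKM in elevated light and 189 to 192 in control light, against 221 to 229 and 188 to 196, and so was higher in elevated light without overlap in both chains. The part of either in the results was not tested. In whole leaves, fewer cells of a type and less RNA per cell cannot be told apart.

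At systemic leaf 1, beside hpca1-1, the median rise of the 282 genes was 1.05 on the log2(FPKM + 1) scale, and it ranged from 0.81 to 3.13. For 32 of these genes the light and control libraries beside hpca1-1 overlapped. In the 3WT chain the median change of the 282 genes was -0.32, with a range from -3.18 to 0.20. There 241 had a change below 0 and 41 one of 0 to 0.2. The median over all tested genes was -0.06 for the rise beside hpca1-1 and 0 for the change in 3WT. Set against 3WT, the members' levels in the WT-hpca1-WT chain differed by a median of 1.08 in elevated light and -0.39 in control light, where all tested genes had medians of -0.08 and -0.02. A rule that asks for a rise in one chain and none in the other favours such values, so nothing is read from them.

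Values near the limits of the rule show where the set ends. SR1, at 0.81, was just inside the minimum rise, and RALFL32, just under 0.80, was outside it. JAR1, with a 3WT change of 0.19, was inside the limit on that change, and CER1, at 0.21, was outside. LDOX, an enzyme of anthocyanin synthesis, rose by 1.67 at a mean of 2.88 FPKM, and so fell short of the level minimum. AOC2, an allene oxide cyclase, missed the minimum rise at 0.79.

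Of the 282 genes, 245 were protein-coding, 14 were long non-coding RNAs, 10 small nucleolar RNAs, 4 antisense RNAs, 3 microRNAs, 2 small nuclear RNAs and 1 another non-coding RNA, and 3 organelle identifiers had no matching name. Among the 37 that were not known protein-coding genes, 25 were listed at 0 in at least 1 chain library. The gene with the largest rise, the small nucleolar RNA AT1G07897 at 3.13, was one of these. It had 14.9, 0 and 41.4 FPKM in elevated light and was listed at 0 in all 3 control libraries. Its values were as scattered at other positions, and a listed 0 may stand for a failed estimate. The protein-coding genes rest on firmer values, with 239 of 245 above 0 in every chain library. The filter on low values (1 FPKM in at least 3 libraries of a table) left 273 of the 282 for tests in the chain table and 209 in the contact table.

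The most abundant member was LOX2, a plastid 13-lipoxygenase at the start of jasmonate synthesis. At systemic leaf 1 it had 2312, 2256 and 2264 FPKM in elevated light and 1149, 1127 and 1131 in control light in WT-hpca1-WT chains. In the 3WT chain it had 1129, 1091 and 1058 FPKM in elevated light and 1769, 1646 and 1709 in control light. The light and control libraries did not overlap in either chain, and the difference ran in opposite directions. AOS, allene oxide synthase, had 1212, 1200 and 1186 FPKM in elevated light against 547, 532 and 545 in control beside hpca1-1, and 590, 586 and 580 against 703, 694 and 698 in 3WT. AOC1 and OPR3, the next enzymes of the route, were also among the 10 most abundant members, with the arginase ARGAH2, the chlorophyllase CLH1, the dehydroascorbate reductase DHAR1 and the ubiquitin gene UBQ11.

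Gene lists were drawn up with earlier results of these data known, so the counts of members in them are a description. The longest of the 16 lists, 28 genes of jasmonate synthesis and response, held 17 members. Of all 32824 genes, 282 were members. The 17 were LOX2, LOX3, AOS, AOC1, OPR3, JAR1, the repressors JAZ2, JAZ3, JAZ5, JAZ6, JAZ9 and JAZ10, and MYC2. The others were the enzymes CYP94B3 and ST2A that inactivate jasmonates, and the response genes TAT3 and CORI3. A further 8 members stood in the other lists, 3 of 17 abscisic acid genes (RD20, RD26 and HAI1), 3 of 15 glucosinolate genes (CYP79B2, CYP79B3 and MYB34), 1 of 10 touch genes (the calmodulin-like AT1G76640) and 1 of 8 flavonoid genes (DFR). The 11 lists with no member included 17 genes of the joint jasmonate and ethylene branch, 17 of the salicylate pathway, 15 of heat stress, 14 of reactive oxygen and high light, and 13 of cold. The first of these holds the defensin genes PDF1.2, PDF1.2b and PDF1.2c, which were left out by name, and PDF1.2 and PDF1.2c met the limits of the rule.

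**Figure D1:**
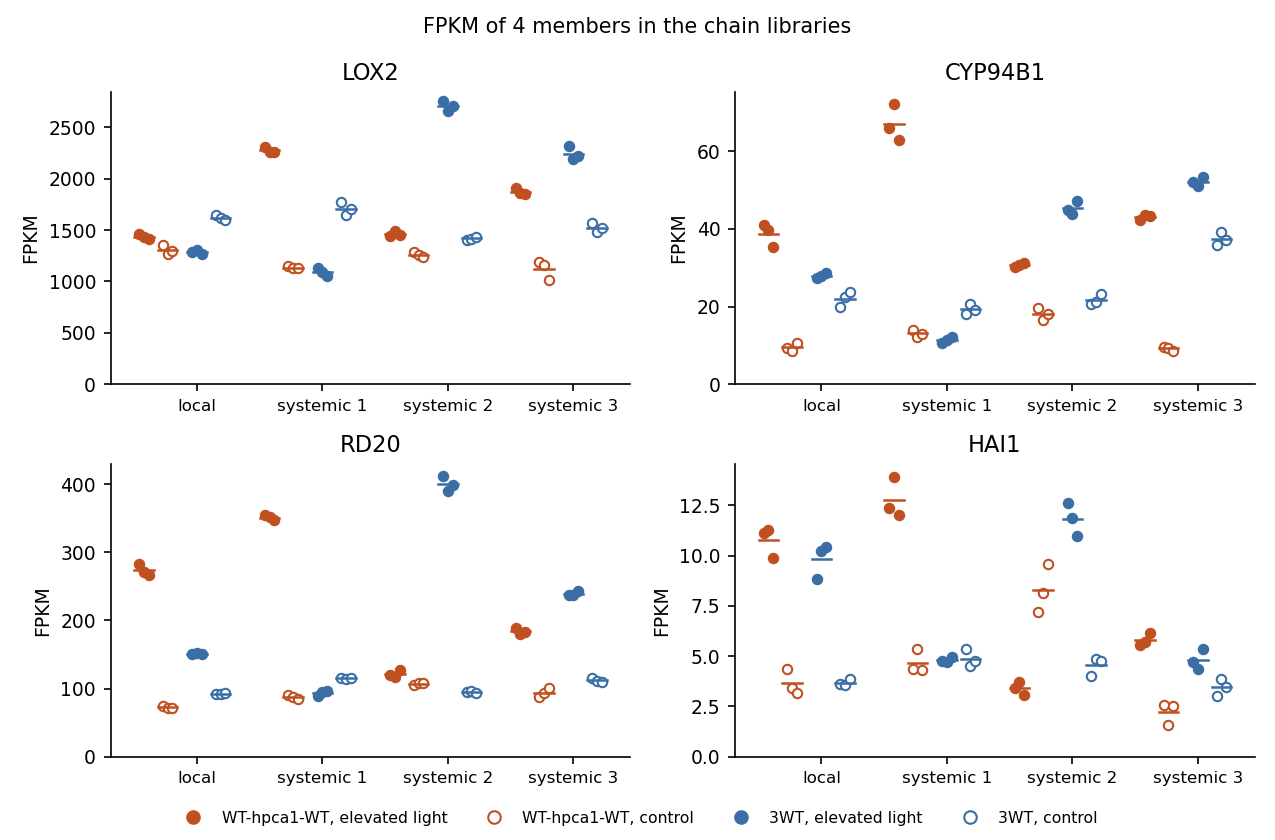
Level in FPKM (linear axis from 0) of LOX2, CYP94B1, RD20 and HAI1 in each chain library by position, with the WT-hpca1-WT chain left of the 3WT chain, filled points for elevated light, open points for control and a line at each group mean. LOX2 reached 2312 FPKM at systemic leaf 1 of WT-hpca1-WT chains and 2758 at systemic leaf 2 of the 3WT chain.

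In the local leaf, which received the light, most of the genes rose in the chain with hpca1-1, and 53.1% of them in 3WT. Of the 273 tested members, 212 rose and 12 fell in the WT-hpca1-WT chain, with a median change of 0.78 (limma, adjusted p under 0.05 over all tested genes), where 13.6% of all tested genes rose and 48.9% fell. In 3WT, 145 rose and 44 fell, with a median of 0.27, where 14.0% of all genes rose and 45.3% fell. The median of all tested genes was -0.19 and -0.16 in these comparisons. Rescaling every library to a common median of ratios brought both to 0.00, and the all-gene calls became 4809 higher and 4269 lower in the WT-hpca1-WT chain and 4890 higher and 3864 lower in 3WT. The members' calls in 3WT then became 182 higher and 17 lower. The largest rises among named protein-coding members were of DIP2, by 3.45 and 3.57 in these chains, and of PUB19, a ubiquitin ligase of the U-box family, by 3.04 in each.

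CYP94B1, a cytochrome P450 that oxidises the jasmonate conjugate, had the largest rise at systemic leaf 1 of any member with a gene name. There it had 65.9, 72.1 and 62.8 FPKM in elevated light and 14.0, 12.2 and 13.0 in control light beside hpca1-1, against 10.6, 11.3 and 12.2 and 18.1, 20.6 and 19.1 in 3WT. In the local leaf it had 41.1, 39.8 and 35.3 FPKM in elevated light against 9.37, 8.65 and 10.5 in control in the WT-hpca1-WT chain. The local leaf of 3WT had 27.3, 27.9 and 28.6 FPKM in elevated light against 19.9, 22.4 and 23.7 in control. The light libraries lay above their controls in both chains, and the controls of the WT-hpca1-WT chain lay below those of 3WT. The rise was 1.92 ± 0.07 (log2, SE) in the WT-hpca1-WT chain and 0.33 ± 0.07 in 3WT, a difference of 1.58 ± 0.10 (limma, adjusted p = 1.8e-15).

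Among the 17 jasmonate members, 15 rose and 2 fell in the local leaf of WT-hpca1-WT chains, and 12 rose and 3 fell in that of 3WT. LOX3, a second 13-lipoxygenase, rose by 2.2 ± 0.04 and 1.44 ± 0.04 in these chains, and OPR3, the reductase of the route, rose by 1.84 ± 0.02 in the WT-hpca1-WT chain. JAZ10 rose by 1.24 ± 0.05 beside a 3WT change of -0.02 ± 0.05 (limma, adjusted p = 0.80). LOX2 rose by 0.13 ± 0.04 in the WT-hpca1-WT chain and fell by 0.33 in 3WT. CORI3, a gene induced by the jasmonate mimic coronatine, fell in both chains, by 0.54 and 0.58. PYK10, a β-glucosidase of endoplasmic reticulum bodies, fell by 1.32 and 1.67. Members of the set thus moved unequally in the lit leaf.

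The light response in the local leaf was higher in the WT-hpca1-WT chain than in 3WT for 186 of the 273 members and lower for 5, where 5.54% of all genes passed upward and 9.79% downward, and the median difference was 0.50. Levels in the 2 conditions show where this difference lay. In elevated light the members' levels in the WT-hpca1-WT chain exceeded those of 3WT by a median of 0.11, with a higher mean for 176 and a lower mean for 92, whereas in control light the median was -0.39, with a higher mean for 37 and a lower mean for 229. MYC2, the transcription factor released from JAZ proteins, had 128, 124 and 126 FPKM in elevated light and 57.0, 56.5 and 56.2 in control light in the WT-hpca1-WT chain. In 3WT it had 128, 133 and 132 FPKM in elevated light and 86.4, 87.4 and 85.5 in control light. For MYC2 the elevated-light levels of the chains were close and the control levels lay apart. Since the labels name no batch, the chain and any batch of plants cannot be told apart. Low control levels shared by the leaves of a chain could also reach this difference through the selection, which was not tested.

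**Figure D2:**
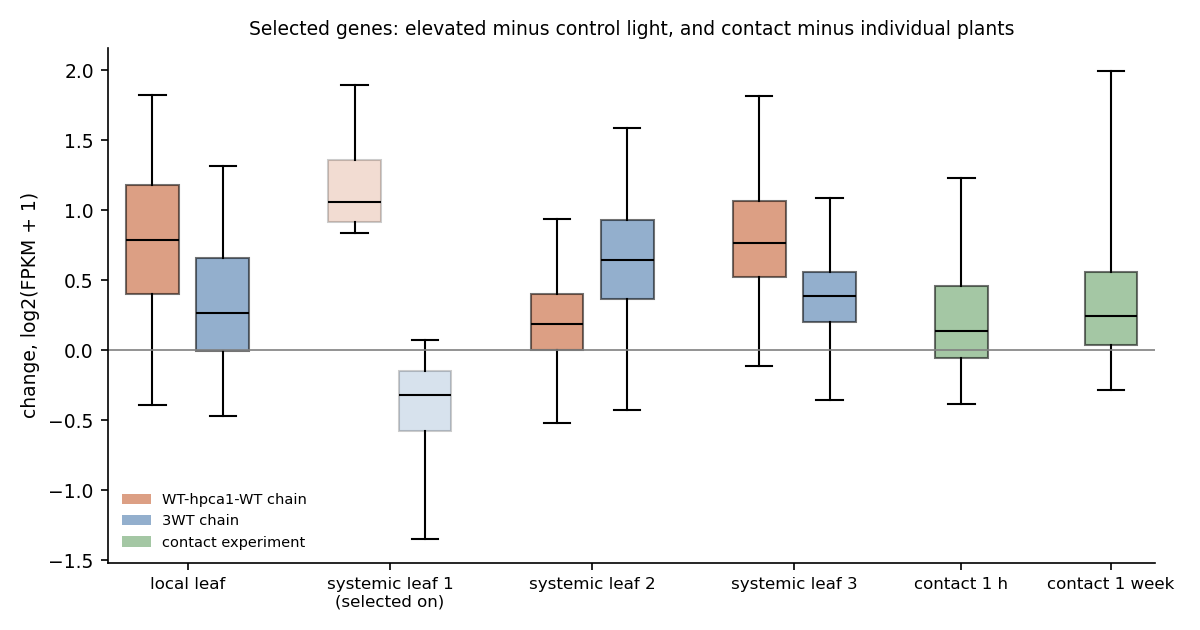
Change of the members on the log2(FPKM + 1) scale by position and chain (WT-hpca1-WT left of 3WT) and for 1 h and 1 week of contact; boxes are quartiles, whiskers the 5th to 95th percentile, lines medians, and the pale boxes at systemic leaf 1 were selected on. Medians were 0.78 and 0.27 at the local leaf, 0.19 and 0.64 at systemic leaf 2, and 0.77 and 0.39 at systemic leaf 3.

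At systemic leaf 2, the hpca1-1 leaf itself in one chain, the order of the chains was the other way round. In hpca1-1 leaves 130 of the 273 members rose and 18 fell, with a median change of 0.19, where 6.21% of all genes rose and 11.7% fell. In wild-type leaves of 3WT 213 rose and 5 fell, with a median of 0.64, where 8.55% rose and 32.7% fell. The response in hpca1-1 leaves was lower than in wild-type leaves for 171 members and higher for 4, where 5.88% of all genes passed downward and 13.0% upward. The median difference was -0.43. All-gene calls moved with the scaling here, to 1686 higher and 1581 lower in hpca1-1, 2936 and 2510 in wild type, and 1150 and 1723 for the difference, while the members' difference became 3 higher and 186 lower.

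RD20, a caleosin of the abscisic acid and drought response, showed this pattern at high levels. At systemic leaf 2 it had 119, 117 and 127 FPKM in elevated light against 105, 108 and 109 in control light in hpca1-1 leaves, and 412, 390 and 399 against 94.6, 95.7 and 93.5 in wild-type leaves. The control levels of the genotypes were near each other, and the elevated-light levels lay far apart. Its rise was 0.17 ± 0.04 in hpca1-1 and 2.07 ± 0.04 in wild type, a difference of -1.90 ± 0.05 (limma, adjusted p = 8.6e-26). At systemic leaf 1 RD20 had 355, 352 and 347 FPKM in elevated light and 91.0, 87.8 and 84.3 in control light beside hpca1-1, against 88.3, 95.6 and 96.9 and 116, 115 and 115 in 3WT. RD20 also rose in both chains elsewhere, by 1.90 in WT-hpca1-WT and 0.70 in 3WT at the local leaf, and by 0.97 in WT-hpca1-WT and 1.08 in 3WT at systemic leaf 3.

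HAI1, a phosphatase of abscisic acid signalling, went in opposite directions at systemic leaf 2. It had 3.41, 3.71 and 3.04 FPKM in elevated light against 7.18, 8.13 and 9.59 in control light in hpca1-1 leaves, and 12.6, 11.9 and 11 against 4.03, 4.85 and 4.77 in wild-type leaves. It fell by 1.08 ± 0.11 in hpca1-1 and rose by 1.21 ± 0.11 in wild type, with no overlap in either, and the difference of -2.29 ± 0.15 was the largest fall among named protein-coding members (limma, adjusted p = 1.4e-14). RD26, a NAC transcription factor of the same response, also fell in hpca1-1, by 0.19 ± 0.06, and rose in wild type, by 0.76 ± 0.06. Its fall did not pass without elevated-light replicate 1 or 3 or control replicate 1 or 3 of hpca1-1. Over the abscisic acid list, of which 16 of 17 genes were tested, 1 rose and 9 fell in hpca1-1 leaves, whereas 12 rose and 1 fell in wild-type leaves.

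All 17 jasmonate members rose at systemic leaf 2 of 3WT, and 9 rose and 2 fell in hpca1-1 leaves. The response was lower in hpca1-1 for 15 of the 17 and higher for 0, against a background of 5.88% of all genes lower. LOX2 had 1445, 1486 and 1451 FPKM in elevated light against 1283, 1256 and 1239 in control light in hpca1-1 leaves. It had 2758, 2655 and 2711 FPKM in elevated light against 1405, 1418 and 1432 in control light in wild-type leaves. The difference of its responses was -0.72 ± 0.05 (limma, adjusted p = 8.1e-14). The repressor genes JAZ5 and JAZ6 did not pass the test in hpca1-1, at -0.11 and -0.05. CORI3, which had fallen in the local leaf, rose by 0.21 in hpca1-1 and by 1.22 in wild type.

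DFR, dihydroflavonol reductase of anthocyanin synthesis, had low levels at every position. At systemic leaf 2 it had 0.395, 0.701 and 0.293 FPKM in elevated light against 0.268, 0.322 and 0.657 in control light in hpca1-1, and 2.96, 2.91 and 3.87 against 0.2, 0.241 and 0.266 in wild type. All 7 tested flavonoid genes rose there in wild type, 1 of 7 rose in hpca1-1, and the difference was lower in hpca1-1 for 7 of 7. Of the 15 glucosinolate genes, 12 rose and 2 fell in wild type, and 2 rose and 2 fell in hpca1-1. CYP79B2, which makes the first intermediate of indole glucosinolates from tryptophan, rose by 0.80 ± 0.05 in wild type, beside 0.08 ± 0.05 in hpca1-1. The touch list moved otherwise. Of its 10 genes, 8 rose in the local leaf of WT-hpca1-WT chains and 10 in that of 3WT, with 0 falls, while 0 rose and 6 fell in hpca1-1 leaves at systemic leaf 2 and 1 rose and 7 fell in wild-type leaves. AT1G76640, its 1 member, was an exception there, with 0.41 ± 0.15 in hpca1-1, which did not pass the test (limma, adjusted p = 0.060), and a rise of 0.65 ± 0.15 in wild type.

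BSMT1, a methyltransferase that makes methyl benzoate and methyl salicylate, rose most at systemic leaf 2 of the members with a gene name. It rose by 2.35 ± 0.12 in hpca1-1 and 3.31 ± 0.12 in wild type. Its response was thus lower in hpca1-1 by test, with a difference of -0.96. For some other members the response there did not differ by test between the genotypes, or differed the other way. TPS04, geranyllinalool synthase, rose by 0.94 ± 0.07 and 0.99 ± 0.07, and the difference of -0.05 ± 0.10 did not pass the test (limma, adjusted p = 0.78). The 4 members with a higher response in hpca1-1 included the peroxidase gene PRX52, with a difference of 1.08, and MSRB7, a methionine sulfoxide reductase, with 1.02. PRX52 had 7.30, 6.48 and 7.61 FPKM in elevated light against 3.10, 3.31 and 3.79 in control light in hpca1-1, while its wild-type libraries overlapped.

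In control light the members were slightly lower in hpca1-1 than in wild type at systemic leaf 2. There 26 were higher and 121 lower, with a median of -0.16, where 7.83% of all genes were higher and 12.5% lower, and rescaling gave 1825 higher and 1819 lower over all genes. RAP2.6, an ethylene response factor, had a difference of -1.13 ± 0.10, with 8.79, 6.20 and 9.65 FPKM in hpca1-1 and 16, 20.0 and 21.3 in wild type. Its groups did not overlap. Of the 28 jasmonate genes 1 was higher and 19 were lower, and of the 16 abscisic acid genes 11 were higher and 1 was lower. Members were also lower in control light in the wild-type leaves of the WT-hpca1-WT chain, by medians of -0.39 at the local leaf and -0.52 at systemic leaf 3.

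**Figure D3:**
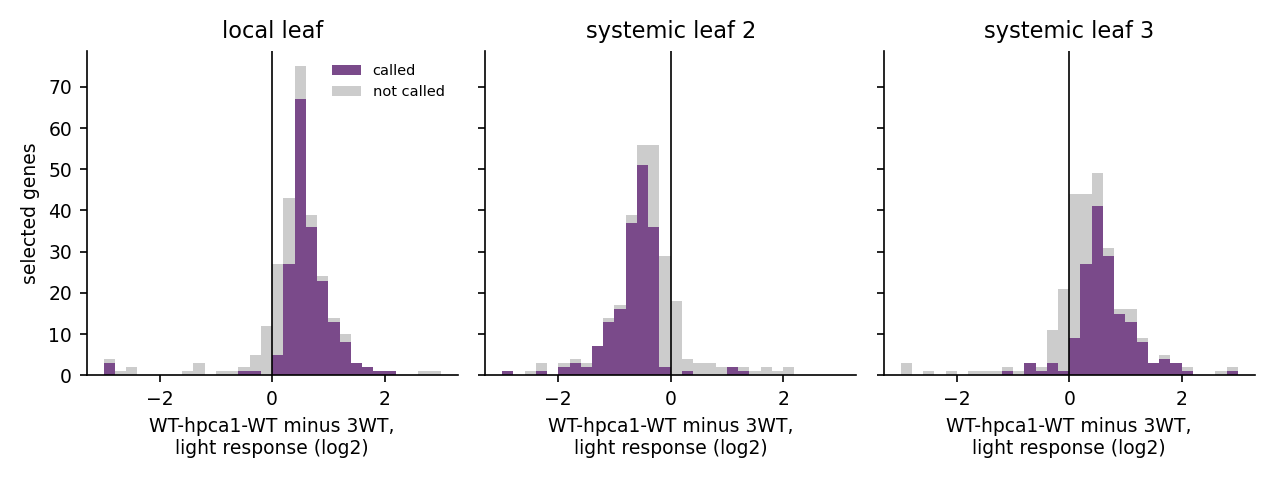
Histograms of the members' difference in light response, WT-hpca1-WT minus 3WT on the log2(FPKM + 1) scale, at the local leaf, systemic leaf 2 and systemic leaf 3, with called and other members in separate colours and values past ±3 in the end bins. The bulk lies above 0 at the local leaf (median 0.50) and systemic leaf 3 (0.40) and below 0 at systemic leaf 2 (-0.43).

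At systemic leaf 3, a wild-type leaf beyond the middle plant, most of the members rose in both chains. In the WT-hpca1-WT chain 233 of 273 rose and 3 fell, with a median of 0.77, where 13.4% of all genes rose and 14.1% fell. In 3WT 192 rose and 6 fell, with a median of 0.39, where 8.81% rose and 14.1% fell. Both chains shared 188 of these rises, which is 68.9% of the tested members beside 5.44% of all tested genes. The response was higher in the WT-hpca1-WT chain for 154 members and lower for 9, where 8.37% of all genes passed upward and 5.74% downward. Rescaling gave 2136 higher and 1922 lower over all genes in 3WT, and 1230 and 1333 for the difference between chains.

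The larger rise behind hpca1-1 again went with lower control levels. In elevated light the members' levels at systemic leaf 3 were themselves lower in the WT-hpca1-WT chain than in 3WT, by a median of -0.18, with a higher mean for 66 and a lower mean for 205, and in control light by a median of -0.52, with a higher mean for 16 and a lower mean for 254. CYP94B1 had 42.4, 43.6 and 43.4 FPKM in elevated light and 9.65, 9.37 and 8.62 in control light in the WT-hpca1-WT chain. In 3WT it had 52.2, 51.0 and 53.4 FPKM in elevated light and 35.7, 39.2 and 37.1 in control light. Its rise was thus larger in the WT-hpca1-WT chain although its level in light was lower there. TPS04 followed the same course, with 33.9, 35.2 and 35.3 against 4.35, 5.6 and 5.06 FPKM in the WT-hpca1-WT chain, and 35.7, 34.4 and 35.1 against 20.4, 20.9 and 20.0 in 3WT.

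Of the 17 jasmonate members, 16 rose and 1 fell at systemic leaf 3 of WT-hpca1-WT chains, and 16 rose and 0 fell in 3WT. The one that fell was ST2A, a sulfotransferase acting on hydroxylated jasmonate. It had 10.2, 10.7 and 9.77 FPKM in elevated light against 15.4, 14.4 and 17.8 in control light in the WT-hpca1-WT chain, and 16.5, 17.2 and 19.0 against 13.7, 12.9 and 12 in 3WT. ST2A thus moved in opposite directions in the chains, unlike its fellow inactivating enzyme CYP94B3, which rose by 2.42 ± 0.06 and 0.75 ± 0.06. The dark-induced gene DIN11 also fell in the WT-hpca1-WT chain, by 0.66.

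**Figure D4:**
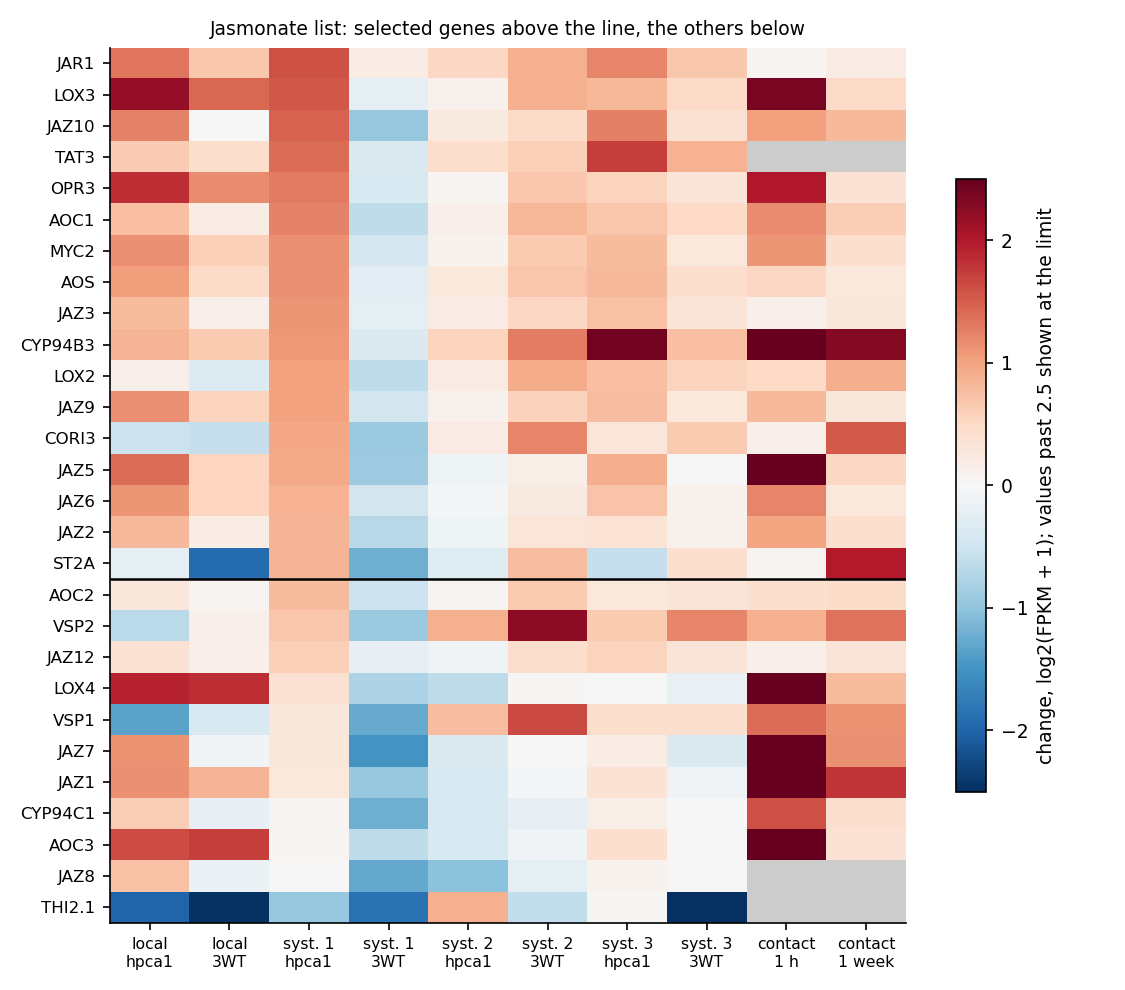
Heat map of the log2(FPKM + 1) change of the 28 genes of the jasmonate list, members above the line, by comparison, with the WT-hpca1-WT chain (labelled hpca1) left of 3WT; the colour scale is limited at 2.5 and grey marks genes not tested. All 17 members rise at systemic leaf 2 of 3WT, and LOX3, JAZ5 and OPR3 rise by 2.00 to 2.55 at 1 h of contact.

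The 11 genes of the jasmonate list that were not members moved like the members in some comparisons. At systemic leaf 2 the response was lower in hpca1-1 for 9 of the 11 and higher for 1, with a median difference of -0.53. In the local leaf and at systemic leaf 3, 6 of the 11 had a higher response in the WT-hpca1-WT chain, and 2 and 1 a lower one. Among the 11, 8 rose and 3 fell in the local leaf in the WT-hpca1-WT chain, and 5 rose and 3 fell in 3WT. LOX4, another 13-lipoxygenase, rose there by 1.92 and 1.84, but at systemic leaf 1 beside hpca1-1 its rise was 0.38. Of the 11, 4 rose and 2 fell at systemic leaf 2 of 3WT, where VSP2, a storage protein gene induced by jasmonate, rose by 2.23. At systemic leaf 3 of 3WT 4 rose and 3 fell. At systemic leaf 1 beside hpca1-1 the repressor genes JAZ1, JAZ7, JAZ8 and JAZ12 had changes of 0.26, 0.28, -0.01 and 0.60, and VSP2 one of 0.68.

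Over the 6 light comparisons outside systemic leaf 1, 69 of 273 members rose in all 6, which is 25.3% beside 0.993% of all tested genes. Another 25 rose in none, all of them non-coding, uncharacterised or organelle genes, and 66 fell in at least 1 comparison. Of all tested genes 69.9% rose in none and 69.4% fell in at least 1, beside 9.16% and 24.2% of the members. Both chains showed a rise in the local leaf for 141 members, 51.6% beside 9.76% of all genes. For 112 of these, 41.0% of the members beside 1.41% of all genes, the rise was larger in the WT-hpca1-WT chain by test. At systemic leaf 2, 85 members rose in wild type and were not called higher in hpca1-1, which is 31.1% beside 5.66% of all genes.

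The contact experiment used other plants and no elevated light. After 1 h of contact 65 of the 209 tested members were higher than in individual plants and 5 were lower, with a median of 0.14, where 9.02% of all genes were higher and 5.73% lower. After 1 week 78 were higher and 3 lower, with a median of 0.24, where 9.56% were higher and 5.29% lower. At both times 43 were higher, 20.6% of the tested members beside 3.21% of all genes. Both times were compared with the same 3 individual-plant libraries.

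At 1 h 12 of the 16 tested jasmonate members were higher and 0 lower, and 8 of 9 tested non-members of the list were higher. At 1 week 15 of the 16 and 8 of the 9 were higher and 0 lower. LOX3 had 23.4, 22.2 and 23.2 FPKM after 1 h and 6.01, 4.93 and 5.24 after 1 week, against 3.78, 3.49 and 3.56 in individual plants. Its groups did not overlap at either time. The changes were 2.38 ± 0.08 (limma, adjusted p = 8.9e-09) and 0.47 ± 0.08 (adjusted p = 0.0027). OPR3 changed by 2.00 after 1 h and 0.36 after 1 week, and JAZ5 rose by 2.55 after 1 h. CYP94B3 had 5.48, 5.73 and 5.13 FPKM after 1 h and 3.82, 3.11 and 5.05 after 1 week, and was listed at 0 in all 3 individual-plant libraries. Among non-members, LOX4 and JAZ7 rose by 3.14 and 2.69 at 1 h.

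Other members were raised far more after 1 week than at 1 h. NATA1, which acetylates ornithine, had 0.6, 0.564 and 0.946 FPKM after 1 h and 25.8, 26.6 and 27.4 after 1 week, against 0.125, 0.225 and 0.295 in individual plants, and the change at 1 week was 4.51 ± 0.12 (limma, adjusted p = 1.1e-09). RD20 had 30.8, 31.5 and 29.4 FPKM after 1 h and 116, 126 and 131 after 1 week, against 26.6, 25.7 and 27.7. Both genes were far above individual plants at 1 week in every library, and at 1 h lay above them without overlap. The rise of RD20 at 1 h was 0.19 ± 0.05 (limma, adjusted p = 0.039). RD26 and CORI3 rose by 2.82 and 1.53 at 1 week, and at 1 h did not pass the test. RAP2.6 had 13.7, 14.3 and 14.6 FPKM after 1 week and was listed at 0 in all 3 individual-plant libraries. Of 9 tested touch genes 9 were higher at 1 h and 6 at 1 week. Over the abscisic acid list 4 genes were higher and 2 lower at 1 h, and 12 were higher and 0 lower at 1 week. Falls that passed the test were small, with 0 members down by 1 or more at either time. The largest of these without overlap of replicates were of AT4G28290 at 1 h, by 0.71, and of MYB34 at 1 week, by 0.38. MYB34 is a regulator of indole glucosinolate synthesis. The fall of AT4G28290 was not kept without individual replicate 1 or 2, or 1 h replicate 1 or 2.

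Further groups by known role were assembled after the values had been seen, and the first shares CYP94B3 and ST2A with the jasmonate list, so these groups support nothing beyond their own values. The counts over all members and the shares of all tested genes, given above by comparison, are the background for every group. The 6 genes of jasmonate turnover were CYP94B1, CYP94B3, ST2A, the methyltransferase JMT, and the amidohydrolases IAR3 and ILL6, which cleave jasmonate conjugates. All 6 rose at systemic leaf 2 and systemic leaf 3 of 3WT. In the hpca1-1 leaf 4 of the 6 rose and 1 fell, and the response was lower than in wild type for all 6. Of all tested members, 47.6% rose there and 62.6% had a lower response, beside 6.21% and 5.88% of all tested genes. JMT had 5.98, 6.13 and 6.6 FPKM in elevated light against 4.64, 4.34 and 4.48 in control light in hpca1-1 leaves, and 20.9, 23.1 and 22.4 against 6.88, 6.19 and 6.97 in wild-type leaves. Its elevated-light libraries were lower in hpca1-1 than in wild type without overlap.

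The 5 genes of arginine and polyamine metabolism (ARGAH2, the arginine decarboxylase ADC2, the polyamine oxidases PAO2 and PAO3, and NATA1) rose in both chains at systemic leaves 2 and 3. ARGAH2 had 1435, 1421 and 1424 FPKM in elevated light and 654, 649 and 646 in control light at systemic leaf 1 beside hpca1-1, against 539, 566 and 574 and 842, 833 and 826 in 3WT. In the next leaf, systemic leaf 2, it rose by 0.48 ± 0.02 in hpca1-1 and by 1.3 ± 0.02 in wild type. The response in hpca1-1 was lower for all 5. In the local leaf NATA1 fell, by 0.54 and 0.96, while ADC2 rose, by 1.01 and 0.58, so that the group did not move as one there.

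Among 10 genes of ascorbate, glutathione and methionine sulfoxide metabolism, 9 rose in hpca1-1 leaves and 10 in wild-type leaves at systemic leaf 2, and 2 had a higher and 6 a lower response in hpca1-1. The ascorbate-recycling gene MDHAR rose by 0.68 ± 0.06 and 0.70 ± 0.06 there, and the difference did not pass the test (limma, adjusted p = 0.92). At systemic leaf 3 it had 55.6, 60.5 and 61.0 FPKM in elevated light against 10.7, 11.4 and 11.6 in control light in the WT-hpca1-WT chain, and 71.1, 62.7 and 74.0 against 42.9, 44.8 and 41.6 in 3WT. Here too the control libraries differed more between chains than the elevated-light libraries. Of 4 genes of volatile synthesis (TPS04, CYP82G1, BSMT1 and the hydroperoxide lyase gene HPL1), all 4 rose at systemic leaf 3 of both chains. Of 4 genes of endoplasmic reticulum bodies, all 4 rose at systemic leaf 3 of WT-hpca1-WT chains, 3 rose in 3WT, and PYK10 fell there by 0.37.

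The matched members lie on all 5 chromosomes, with 69, 47, 39, 59 and 65 genes on chromosomes 1 to 5. Among them are 8 pairs of neighbouring protein-coding genes, including the glutathione transferase genes GSTU6 and GSTU5, the annexin genes ANNAT4 and ANNAT3, and TI2 with AT2G43530, which code for small inhibitor-like proteins. Neighbours of one family can share fragments, so their values are not independent.

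The 300 bases upstream of each of the 245 protein-coding members were read from the TAIR10.1 genome of RefSeq, and in 41 of them the window overlapped another gene. The G-box (CACGTG), the element that MYC2 and related factors are known to bind, was present on either strand in 53 of 245 windows, 21.6%, beside 7.09% of the windows of all protein-coding genes and 8.18% of those of tested genes. The shorter ACGTG, a core of abscisic acid response elements that every G-box also contains, was in 53.1% of members and 25.6% of all genes. Other motifs lay closer to the background in percentage points. The W-box (TTGACC or TTGACT) was in 30.6% of members and 32.3% of all genes, and TGACG in 23.3% and 21.3%. The drought-response core CCGAC was in 18.4% and 13.9%, the evening element AATATCT in 10.2% and 11.8%, and the CCA1 site AAATCT in 37.6% and 39.8%. CGCGT was in 7.76% and 7.89%, and GAANNTTC in 8.16% and 11.5%. GCCGCC was rare, in 0.816% (2 of 245 windows) and 2.26%, and so differed more as a ratio. Of the 17 jasmonate members 3 held a G-box in this window. A match is a description of the letters and not a binding site.

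These 3 windows are shown because they belong to jasmonate genes with the motif, given 5′ to 3′ on the gene's own strand with the G-box in capitals. The motif starts 66 bases upstream of the annotated start in JAZ2 (TIFY10B, chr1:28150447-28150746, minus strand), 140 and 82 bases upstream in JAZ3 (chr3:6119407-6119706, plus strand), and 6 bases upstream in AOS (chr5:17099596-17099895, minus strand).
JAZ2: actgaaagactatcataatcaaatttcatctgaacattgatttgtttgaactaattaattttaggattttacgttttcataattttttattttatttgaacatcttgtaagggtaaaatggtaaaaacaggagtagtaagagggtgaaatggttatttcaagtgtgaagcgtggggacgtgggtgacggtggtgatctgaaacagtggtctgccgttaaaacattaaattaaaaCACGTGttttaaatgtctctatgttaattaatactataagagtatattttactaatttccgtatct
JAZ3: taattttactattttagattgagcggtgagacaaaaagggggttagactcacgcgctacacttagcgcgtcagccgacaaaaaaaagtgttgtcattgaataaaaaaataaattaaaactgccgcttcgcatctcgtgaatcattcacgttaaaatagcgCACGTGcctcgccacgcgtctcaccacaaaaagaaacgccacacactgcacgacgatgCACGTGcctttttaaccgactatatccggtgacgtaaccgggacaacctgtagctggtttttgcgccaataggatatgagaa
AOS: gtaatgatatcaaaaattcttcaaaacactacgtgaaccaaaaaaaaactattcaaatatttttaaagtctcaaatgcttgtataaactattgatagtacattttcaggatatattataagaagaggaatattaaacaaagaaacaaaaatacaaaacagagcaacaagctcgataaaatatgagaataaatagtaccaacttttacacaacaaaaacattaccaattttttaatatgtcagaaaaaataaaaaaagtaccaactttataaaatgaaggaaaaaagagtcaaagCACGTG

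**Figure D5:**
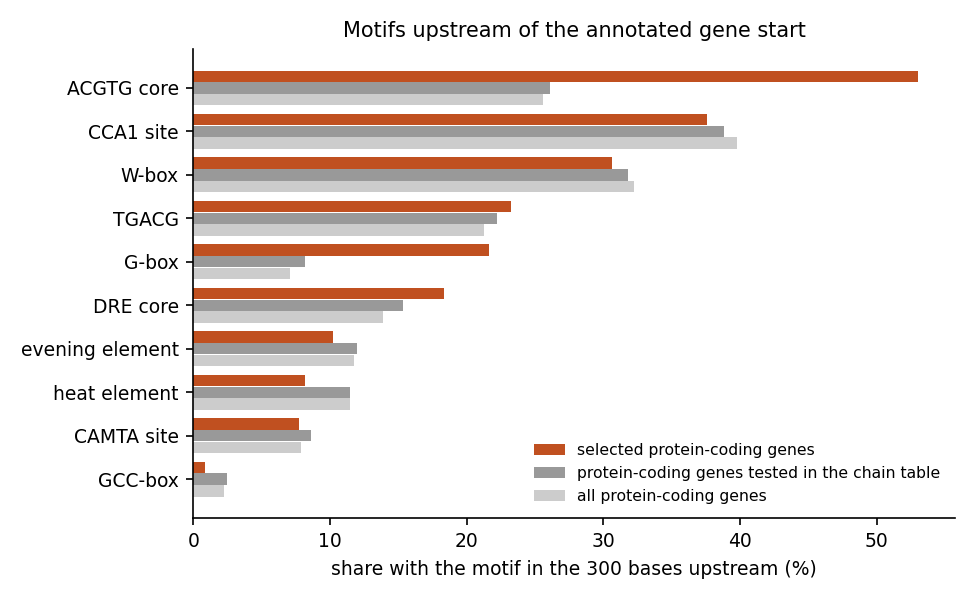
Share of 300-base upstream windows, in percent from 0, that hold each motif on either strand, for the members, the tested genes and all protein-coding genes. The G-box is in 21.6% of members and 7.09% of all genes, and ACGTG in 53.1% and 25.6%.

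In the chains, JAZ2 had 166, 163 and 154 FPKM in elevated light against 91.9, 84.5 and 89.1 in control light at systemic leaf 1 beside hpca1-1, and 82.9, 79.7 and 82.0 against 133, 126 and 136 in 3WT. Its change at systemic leaf 2, of -0.10 in hpca1-1, and its rise of 0.31 in wild type gave a difference of -0.41. AOS rose there by 0.26 ± 0.02 and 0.69 ± 0.02. JAZ3 had 0.21 ± 0.09 in hpca1-1, which did not pass the test (limma, adjusted p = 0.086), and rose by 0.52 in wild type, and its difference of -0.30 ± 0.12 did not pass either (adjusted p = 0.080).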

How the data were processed

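The authors deposited FPKM values, the chains in 1 table and the contact experiment in another. Per the submitters' processing notes, the tools were Trim Galore 0.6.10, FastQC 0.12.1, HISAT2 2.2.1, SAMtools 1.18, Cufflinks 2.2.1 and Cuffdiff 2.2.1, with the TAIR10 genome, and the deposited tables hold no coordinates. Of 32824 identifiers, 32539 were matched to RefSeq TAIR10.1 names. Since the tables may differ in normalization, no test crosses them. Columns write HL where the labels write EL for elevated light.

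Values were transformed to log2(FPKM + 1), which understates the changes of low genes. Genes with 1 FPKM in at least 3 libraries were tested, 18735 in the chain table and 17177 in the contact table, with limma 3.58.1 in R 4.3.3 (all libraries of a table in 1 fit, 1 mean per group, trended variance, two-sided). P-values were adjusted by Benjamini-Hochberg over all tested genes of a comparison, and a call is an adjusted p under 0.05. The code was tested on simulated data. Fragment totals are not given, so no counting interval was computed. Relative depth, estimated from the steps between low values, ran from 0.805 to 1.35 in the chain table and from 0.802 to 1.24 in the contact table. Within groups, replicates correlated at 0.984 to 0.997 and 0.987 to 0.993 over genes with a mean of at least 5 FPKM. Systemic leaf 1 was not tested, since the rule used it.

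The members, gene lists and tests were chosen with earlier results of these data known. Genes named are at systemic leaf 1 the 10 members of largest rise and the 10 of highest level, the 3 largest called rises and falls of each comparison, members of the lists, genes nearest to the limits of the rule, HPCA1 and adjacent members. Other genes named, among them the groups by role and the jasmonate genes that are not members, were chosen after their values were seen. The alternatives were a pseudocount of 0.1, no filter, median-of-ratios scaling, limma without the trend, a replicate block, fits of only the groups compared, and leaving out each library.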

Additional observations from a re-analysis of the deposited data

Results flagged for a closer look

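The light response differed between the chains, by a test of the difference itself, at each position the selection had not used. Levels shared by the leaves of a chain could still carry from the selection into these differences, which was not tested. At the local leaf 186 members had a higher and 5 a lower response in the WT-hpca1-WT chain than in 3WT. The largest differences upward were of AT3G27416, an uncharacterised gene, at 2.07, DIN11 at 1.80 and ST2A at 1.71 (log2 scale). Those downward were of AT1G07897 at -7.81 and of the organelle identifiers ATCG00970 and ATCG01160 at -6.46 each. Both organelle identifiers also had equal changes at systemic leaf 1, of 2.85 beside hpca1-1 and -2.06 in 3WT, so they may stand for 1 measurement. AT1G07897 and both identifiers are listed at 0 in several libraries of the compared groups. Their fitted differences therefore depend on the pseudocount and are no measure of size.

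At systemic leaf 2, 4 members had a higher and 171 a lower response in hpca1-1 than in wild-type leaves. AT3G27416 at 1.27, PRX52 at 1.08 and MSRB7 at 1.02 led upward. AT5G03235, a long non-coding RNA, at -4.06, HAI1 at -2.29 and ILL5, of the amidohydrolase family, at -1.90 led downward. AT5G03235 was listed at 0 in at least 1 library of systemic leaf 1, so the size of its difference is uncertain.

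At systemic leaf 3, 154 members had a higher and 9 a lower response in the WT-hpca1-WT chain than in 3WT. The antisense RNA AT4G00975 at 4.52, DIP2 at 2.16 and MSRB9 at 1.99 led upward, and ST2A at -1.0, DIN11 at -0.79 and DFR at -0.75 downward. AT3G27416 was thus higher in its response in the WT-hpca1-WT chain at both the local leaf and systemic leaf 2, where most members went opposite ways.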

How the results depend on the processing

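Of 25 counts of members, 19 stayed within 1.5 times of their value under every alternative. Under median-of-ratios scaling, members called lower became 6 at the local leaf of WT-hpca1-WT chains and 17 at that of 3WT, and 3 at systemic leaf 2 of 3WT, which that scaling brings about by raising the all-gene medians to about 0. It also turned 3 signs: DHAR1 became 0.15 and 0.032 at the local leaf of the WT-hpca1-WT and 3WT chains, and JRG21 0.010 at the local leaf of 3WT. Members lower at 1 h of contact were 3 without a filter, and 2 to 6 with 1 library left out. Those lower at 1 week were 1 to 5 with 1 left out. A lower response at the local leaf of WT-hpca1-WT chains was called for 3 to 5 with 1 library left out, and for 2 among the members listed at 0 in no chain library, an alternative added after seeing the data. Causes other than the scaling were not tested. Of 554 values of named members and comparisons, 485 stayed past the threshold throughout.

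Replicate numbers gave little sign of pairing over all groups together. Deviations of same-numbered libraries had a median correlation of 0.0141 in the chain table, with 69 of 360 pairs over 0.1. For different-numbered libraries it was -0.0076, with 119 of 720 pairs over 0.1. In the contact table the medians were 0.0344, with 2 of 9 pairs over 0.1, and 0.0032, with 2 of 18. Pairing between particular groups was not tested. With the number as a replicate block, members lower at 1 h of contact became 2, and the other counts stayed within 1.5 times.

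The rule gave 336 genes with a pseudocount of 0.1 (279 shared), 340 under median-of-ratios scaling (282 shared), and 278 to 304 with 1 library left out. Depth is unknown, so low genes such as DFR carry no counting interval.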

Other observations

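The members' levels differ widely between the tables, which were normalized separately and hold different plants. In individual plants LOX2 had 116, 108 and 120 FPKM and NATA1 0.125, 0.225 and 0.295, while in the control libraries of the 3WT local leaf LOX2 had 1644, 1622 and 1597. No test was made across the tables, and what these levels owe to chain, contact, handling or growth cannot be told apart.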
